A study of Rattus norvegicus with 50 samples.

Results

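The ribosome biogenesis genes described here are 39 genes whose products build ribosomes, named as a list of symbols. A gene was measured where the array's gene annotation gave a probe set its symbol alone, and the probe set with the highest mean over all livers was used. This found 38 of the 39 symbols among 14217 genes, and Npm1 alone had no such probe set. The members encode core proteins of the guide RNA particles that modify ribosomal RNA, nucleolar chaperones, and subunits and an initiation factor of RNA polymerase I. Others encode maturation factors of the small and the large subunit, and DEAD-box RNA helicases.

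Livers came from 50 female Brown Norway rats of the Bn/Crl strain with MHC haplotype RT1n, aged 9 to 11 wk, and each was hybridised to 1 Affymetrix rat expression array. The study followed the 8 d after galactosamine given on top of nevirapine, a period in which liver fibrosis formed with the pair of drugs and not with either one alone. Galactosamine is an amino sugar that depletes uridine nucleotides in hepatocytes, and nevirapine is an antiretroviral drug known to injure the liver in some patients. The 17 groups held 3 rats each, except galactosamine at 48 h with 2. Galactosamine rats received 750 mg/kg once by intraperitoneal injection with sham oral dosing, and were killed 3 h, 24 h, 48 h or 8 d later. Nevirapine rats were dosed by mouth, starting at 150 mg/kg, received a sham injection, and were killed at 3 h, 24 h, 48 h or 15 d, the 24 h and 48 h rats following the second and the third dose and the 15 d rats having gone on to 100 mg/kg and 75 mg/kg. Combination rats received nevirapine for 7 d (150 mg/kg for 1 d, 100 mg/kg for 2 d, 1 d without drug, then 75 mg/kg for 3 d), then 750 mg/kg galactosamine, and stayed on 75 mg/kg nevirapine until killed 3 h, 24 h, 48 h or 8 d after the injection. Vehicle rats were sham dosed by both routes and killed at 3 h, 24 h, 48 h, 8 d or 15 d. The interval between the final dosing by mouth and death was 2 h, except in the 3 h groups, where it was 5 h (3 h in the nevirapine group). Nevirapine rats at 3 h were killed 1 h after the sham injection and vehicle rats at 3 h were killed 3 h after it. Nevirapine rats at 15 d and combination rats at 8 d were killed 8 d after injection, and vehicle rats at 15 d were killed 15 d after it. These comparisons thus do not match the time since injection. Combination rats at 8 d had been dosed for 15 d in all and were compared with vehicle rats at 15 d. At 3 h, 24 h and 48 h the 3 treated groups share 1 vehicle group per time. The labels name single rats, and p-values measure the spread between them.

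Ribosome production starts in the nucleolus, where RNA polymerase I transcribes the precursor of most ribosomal RNA. Small nucleolar RNA particles methylate and pseudouridylate this precursor, and large assemblies of protein factors and helicases fold it, cut it and join it with ribosomal proteins. The genes for these factors are widely co-expressed, MYC is a well-known activator of many of them, and in liver they are known to rise when hepatocytes prepare to grow or divide.

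Values are log2 probe set signals of single rats, changes are differences of group means on the log2 scale with the standard error of the fit, and a gene was said to have risen or fallen where its limma p, adjusted by Benjamini-Hochberg over all 14217 genes, was under 0.05. The number of arrays limits the precision. The arrays measure RNA, so a rise or fall given for a factor is that of its gene's RNA, and protein was not measured. Array medians lay between 4.95 and 5.09. Differences between the 3′ and 5′ GAPDH probe sets, a sign of RNA integrity, lay between 0.0089 and 0.86. In every group the 9 hepatocyte markers measured had a mean log2 signal between 13.02 and 13.36. At 3 h it was 13.03 to 13.05 in galactosamine rats and 12.96 to 13.12 in combination rats, under the 13.24 to 13.30 of vehicle rats. The mean also hides single markers, as group means of Hnf4a ran from 10.00 to 12.60. Rat 63 of the combination at 3 h, rat 70 of the combination at 48 h and rat 31 of nevirapine at 3 h were left out together in 1 alternative, a choice made with earlier results of these data known. Their mean correlations with their groups were 0.979, 0.986 and 0.988 in a range of 0.979 to 0.997. That of rat 63 was the lowest of all, while arrays that were kept, such as rats 62 (0.984) and 61 (0.985) of the combination at 3 h, were lower than rats 70 and 31. In whole liver, a change in the number of cells of a type and a change in the RNA each of them holds cannot be told apart. For 27 probe sets of Bacillus subtilis genes, which rat RNA should not bind, group-wide means ran from 1.94 to 4.37, and a signal under 4.37 was not shown to exceed background.

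After galactosamine the members' median was highest at 24 h. Their median in each rat, relative to the mean of the 15 vehicle rats, lay between -0.16 and 0.21 in vehicle rats. It was -0.30 to -0.11 at 3 h after galactosamine, 1.64 to 1.95 at 24 h, 0.52 and 0.59 in the 2 rats at 48 h, and 0.10 to 0.18 at 8 d. In combination rats it was -0.32 to -0.06 at 3 h and 1.04 to 1.24 at 24 h. At 48 h of the combination rat 70 stood at 0.47, rat 71 at 0.04 and rat 72 at -0.05. Under nevirapine alone the rats lay between -0.04 and 0.46. The 24 h rats of both galactosamine arms therefore stood above all other rats, and the galactosamine rats stood above the combination rats.

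**Figure D1:**
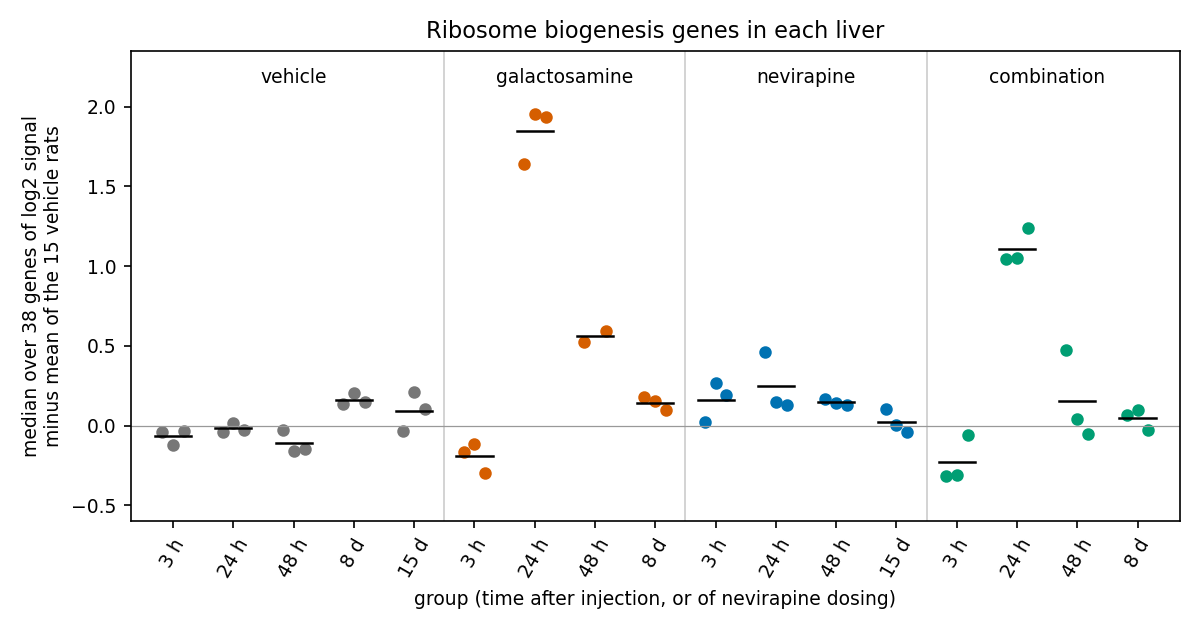
Each point is 1 rat, placed by group along the horizontal axis; the vertical axis is the median over the 38 measured genes of the rat's log2 signal minus the mean of the 15 vehicle rats, and bars are group means. At 24 h the galactosamine rats lie between 1.64 and 1.95 and the combination rats between 1.04 and 1.24, while vehicle rats lie between -0.16 and 0.21.

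**Figure D2:**
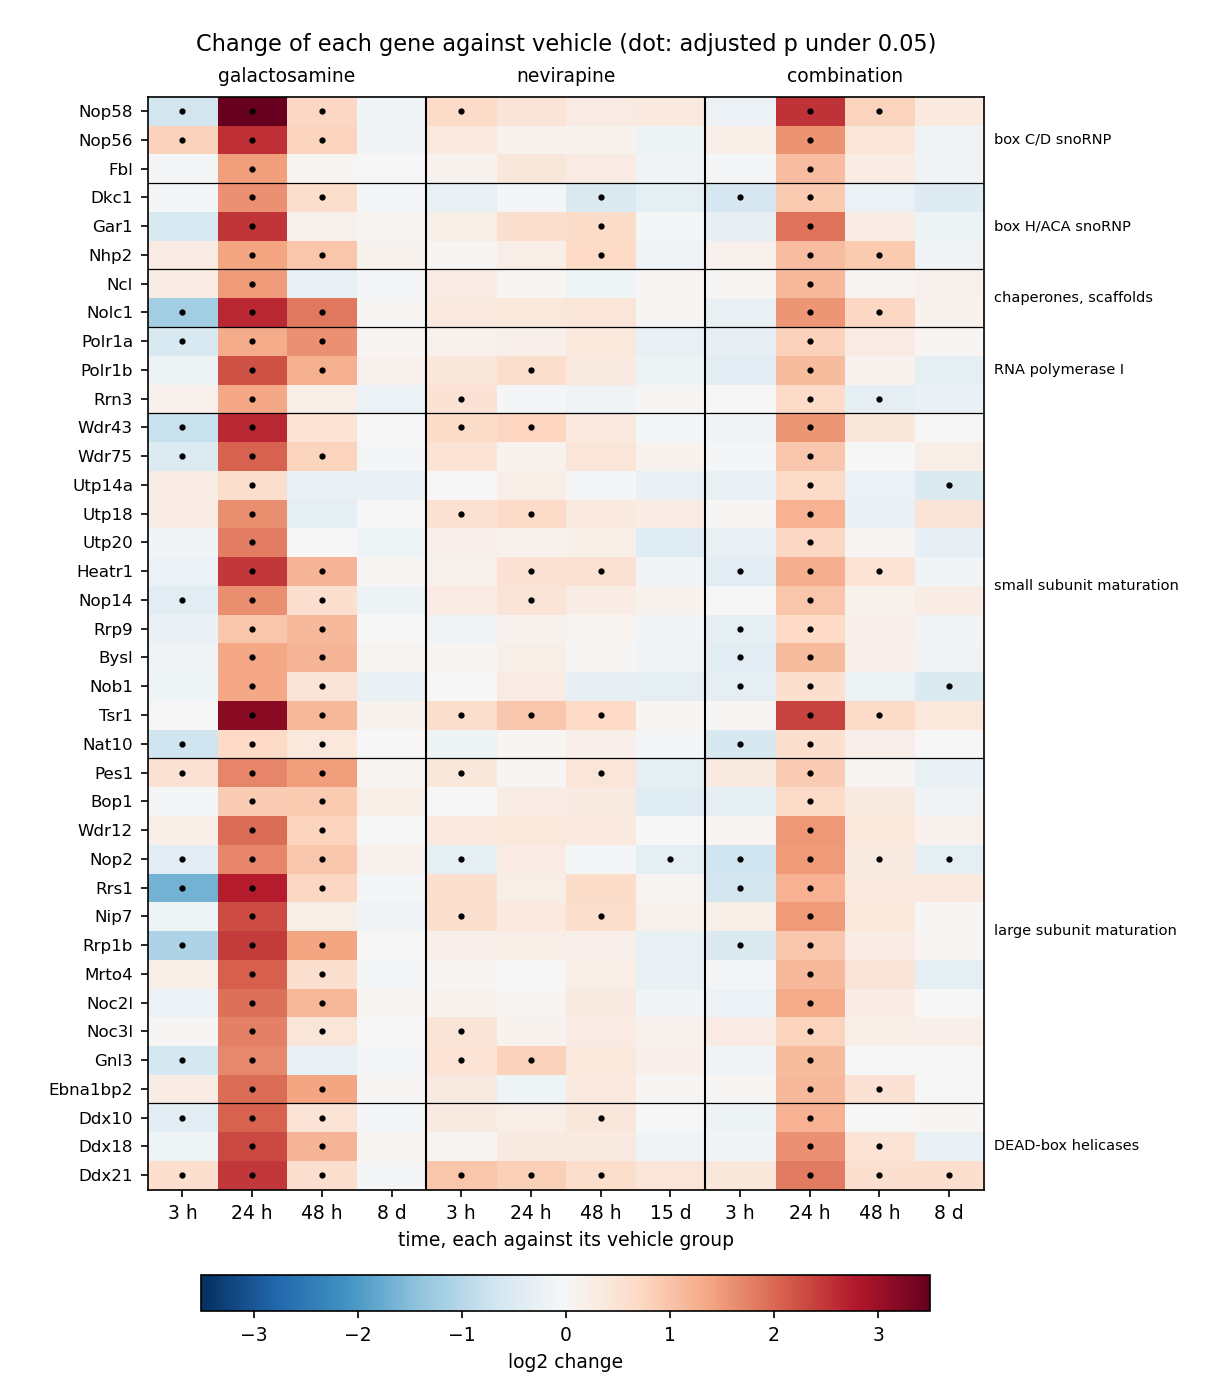
Rows are the 38 genes ordered by role, columns are treatments and times, colour is the log2 change against the vehicle group of the comparison (15 d for the combination at 8 d), and a dot marks an adjusted p under 0.05. All 38 rows carry a dot at 24 h of galactosamine and of the combination, and none at 8 d of galactosamine.

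At 24 h after galactosamine all 38 members measured were higher than in vehicle rats. Among all genes tested, 58.8% were called in this comparison, 30.2% higher and 28.5% lower. The members' changes ran from 0.63 for Utp14a to 3.47 for Nop58, with a median of 1.87, against a median of -0.07 over all 14217 genes. At least 1 on the log2 scale, a doubling, was reached by 34 members, and at least 2 by 16. The galactosamine rats did not overlap the vehicle rats in any of the 38. Separation of small groups also occurred without a call. Vehicle rats at 15 d and 8 d were separate in 10 of the 38 members, with 0 called. The share of all genes with separate rats was not counted, here or in the comparisons below. The count was 38 in every alternative tried and without each rat in turn.

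The 3 members of the box C/D particle, whose RNAs guide methylation of ribose, all rose. Nop58, a core scaffold protein of the particle, read 7.92, 8.15 and 7.96 in vehicle rats and 11.34, 11.44 and 11.66 in galactosamine rats. The lowest treated rat was far above the highest vehicle rat, a change of 3.47 ± 0.20 (adjusted p = 1.17e-17). Nop56, its partner protein, read 8.71, 8.94 and 8.93 against 11.03, 11.54 and 11.72, a change of 2.57 ± 0.18 (adjusted p = 1.36e-15). Fbl, fibrillarin, the methyltransferase of the particle, read 8.22, 8.55 and 8.44 against 9.64, 9.76 and 10.16. Its change of 1.45 ± 0.14 (adjusted p = 1.84e-11) was the smallest of these 3.

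The 3 members of the box H/ACA particle, whose RNAs guide the formation of pseudouridine, rose as well. Gar1, a core protein needed for its catalysis, read 6.72, 6.89 and 6.62 in vehicle rats and 8.79, 9.39 and 9.55 in galactosamine rats, a change of 2.50 ± 0.21 (adjusted p = 3.28e-13). Dkc1, dyskerin, the pseudouridine synthase itself, read 8.28, 8.03 and 8.22 against 9.58, 9.54 and 10.19, a change of 1.59 ± 0.17 (adjusted p = 1.96e-10). Nhp2, another core protein, read 8.38, 8.53 and 8.29 against 9.62, 9.74 and 9.96, a change of 1.37 ± 0.18 (adjusted p = 3.57e-08). In all 3 genes every treated rat was above every vehicle rat.

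Of the nucleolar chaperones, Nolc1, a scaffold that escorts both kinds of particle, read 6.58, 6.62 and 6.42 in vehicle rats and 9.00, 9.21 and 9.35 in galactosamine rats, a change of 2.65 ± 0.19 (adjusted p = 3.63e-15). Ncl, nucleolin, an abundant protein that binds the nascent precursor, read 10.53, 10.46 and 10.60 against 11.80, 12.03 and 12.27, a change of 1.50 ± 0.12 (adjusted p = 1.21e-13). Neither gene overlapped between the groups. Nolc1 has 3 further probe sets. Of these, 2 rose and 1 fell by 0.41 at 24 h, and the mean of that last one over all rats, 3.57, was under the background level. Over all 9 members with more than 1 probe set, 11 of the 12 further probe sets rose at 24 h and this one fell.

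The members of RNA polymerase I rose with them. Polr1b, a subunit of its catalytic core, read 6.42, 5.96 and 6.26 in vehicle rats and 8.16, 8.55 and 8.61 in galactosamine rats, a change of 2.23 ± 0.19 (adjusted p = 3.43e-13). Rrn3, the factor that brings the polymerase to its promoter, read 8.11, 8.09 and 8.40 against 9.60, 9.38 and 9.64, a change of 1.34 ± 0.11 (adjusted p = 1.37e-13). Polr1a, the largest subunit, read 6.53, 6.61 and 6.38 against 7.71, 7.60 and 8.14, a change of 1.31 ± 0.14 (adjusted p = 9.27e-11). Rats of the 2 groups were separate in each gene.

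All 12 small subunit factors rose, with a median change of 1.63. Tsr1, a factor of the late small subunit precursor that resembles a GTPase, read 8.05, 7.86 and 7.92 in vehicle rats and 11.05, 10.97 and 11.27 in galactosamine rats, a change of 3.15 ± 0.17 (adjusted p = 1.76e-18). Wdr43, which links transcription by polymerase I to early processing, read 6.38, 6.61 and 6.51 against 8.86, 9.28 and 9.26, a change of 2.63 ± 0.19 (adjusted p = 4.79e-15). Heatr1, of the same early complex, read 6.59, 6.70 and 6.57 against 8.85, 9.18 and 9.28, a change of 2.48 ± 0.15 (adjusted p = 6.31e-17). Treated and vehicle rats were apart in all 3.

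The other 9 small subunit factors covered a wide range. Wdr75, also of the early complex, changed by 2.06 ± 0.17, Utp20, a large scaffold protein, by 1.80 ± 0.16, and Nop14 by 1.63 ± 0.12. Bysl, bystin, a factor of the small subunit precursor, changed by 1.36 ± 0.14, and Nob1, the nuclease that trims the end of the small subunit RNA, by 1.36 ± 0.11. Utp18 rose at least 3.05-fold, a bound because its vehicle mean was under the background level. The 2 smallest changes of all members, those of Utp14a and Nat10, belonged to this group too. Rrp9, a protein of the U3 particle, changed by 0.96 ± 0.11, Nat10, which acetylates the small subunit RNA, by 0.71 ± 0.13, and Utp14a, which activates a helicase that releases U3, by 0.63 ± 0.14.

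All 12 large subunit factors rose, with a median change of 1.95. Rrs1, which helps to place the 5S ribosomal RNA into the large subunit, read 7.85, 7.26 and 7.56 in vehicle rats and 10.13, 10.64 and 10.15 in galactosamine rats, a change of 2.75 ± 0.24 (adjusted p = 1.47e-12). Rrp1b, a nucleolar factor of the large subunit pathway, read 6.61, 6.85 and 6.91 against 9.16, 9.43 and 9.16, a change of 2.46 ± 0.17 (adjusted p = 2.72e-15). Nip7, needed for processing of the precursor, read 7.21, 7.53 and 7.18 against 9.32, 10.19 and 9.28, a change of 2.29 ± 0.19 (adjusted p = 1.99e-13). Rat 23 was well above the other 2 treated rats in Nip7, and all 3 were above vehicle.

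Among the other large subunit factors, Mrto4, a placeholder for the stalk protein P0, changed by 2.09 ± 0.18, Ebna1bp2 by 1.96 ± 0.18 and Noc2l by 1.94 ± 0.16. Of the Pes1, Bop1 and Wdr12 complex, Wdr12 changed by 1.95 ± 0.14, Pes1 by 1.71 ± 0.13 and Bop1 by 0.89 ± 0.15. Nop2, a methyltransferase of the large subunit RNA, changed by 1.72 ± 0.11, and Gnl3, nucleostemin, a nucleolar GTPase, by 1.69 ± 0.14. Noc3l was under the background level in every group but this one, where its rats read 4.05, 4.66 and 4.51, so that its rise is given only as at least 1.02-fold.

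The 3 DEAD-box helicases, which remodel RNA with ATP, all rose. Ddx21, which acts in polymerase I transcription and processing, read 7.82, 7.77 and 7.92 in vehicle rats and 10.18, 10.25 and 10.50 in galactosamine rats, a change of 2.47 ± 0.19 (adjusted p = 6.96e-14). Ddx18 read 7.06, 7.34 and 7.25 against 9.44, 9.50 and 9.69, a change of 2.32 ± 0.12 (adjusted p = 1.16e-18). Ddx10 read 6.79, 6.71 and 6.56 against 8.46, 8.76 and 9.00, a change of 2.05 ± 0.14 (adjusted p = 9.35e-16). No vehicle rat reached a treated rat in any of these. The median of all members stayed at 1.87 with Utp18 and Noc3l set at their bounds.

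**Figure D3:**
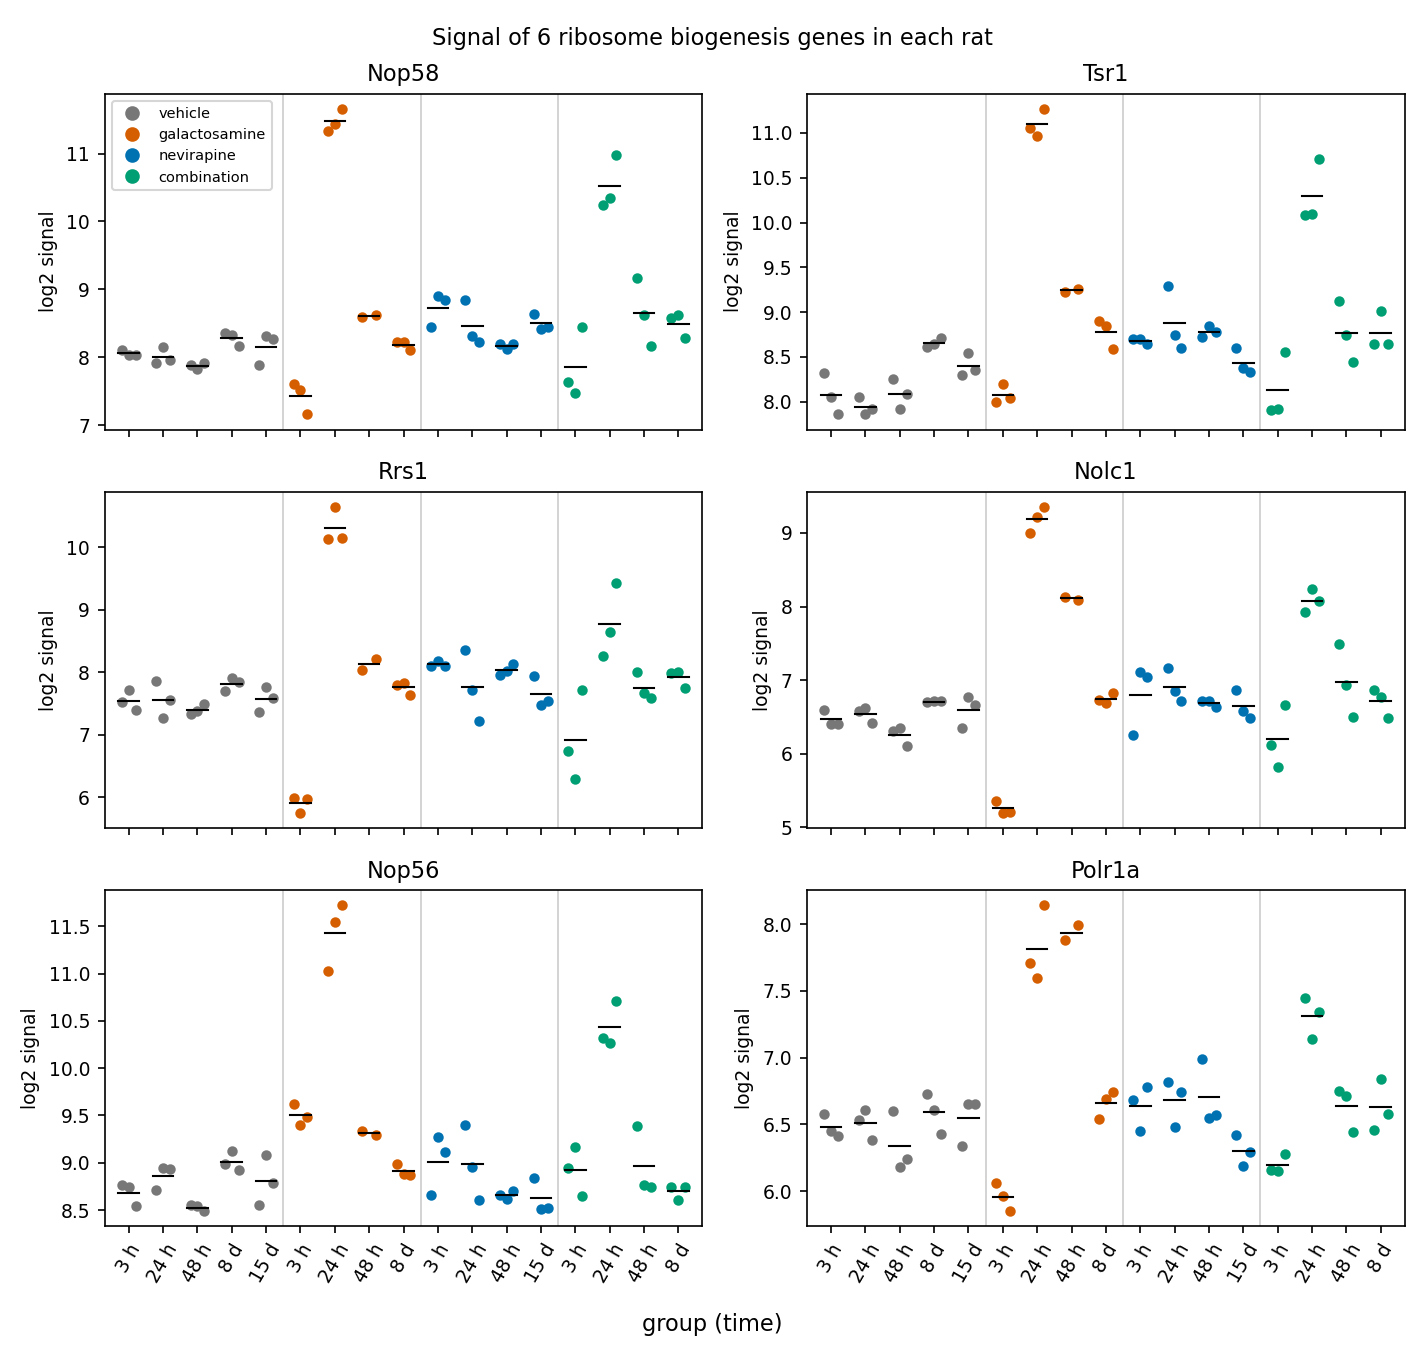
Each panel is 1 gene, each point 1 rat with its log2 signal, bars are group means, and colours are vehicle, galactosamine, nevirapine and combination in order of time. Nop58, Tsr1, Rrs1, Nolc1 and Nop56 peak at 24 h of galactosamine, while Polr1a reads 7.60 to 8.14 at 24 h and 7.88 and 7.99 at 48 h.

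Since the members moved together, their promoters were searched for short motifs. RefSeq windows of the GRCr8 build, 300 bases from 250 before to 50 after the start site the table uses, were found for 35 of the 38 members. That site was the outermost start of the annotated gene in 21 of the 35 and in 19334 of the 33460 windows matched to an annotated gene, and otherwise lay inside the gene, as for Nop58 and Ddx18. Those of Wdr43, Bop1 and Rrs1 were not used here. Both strands were searched. The E-box CACGTG, to which MYC and related factors bind, was in 14 of the 35 windows (40%). It was in 6.42% of all 33469 windows and in 8.62% of the 13243 windows of genes on the array. CCGGAAG, a motif of ETS factors, was in 16 (45.7%), against 8.75% and 14.3%. GGGCGG, the GC box, was in 24 (68.6%), against 33.1% and 55.7%. CCAAT was in 7 (20%), against 37.5% and 36.8%. A longer CG-rich palindrome that was also searched was in none of the 35, against 0.373% and 0.732%. The median GC content was 58% for the members, 59.7% for genes on the array and 51.7% for all windows. A match describes these letters and is not a measured binding site.

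The 4 windows printed here show how the motifs lie in 2 box C/D genes, a small subunit gene and a helicase gene, in 5′ to 3′ order of the gene's strand, with CACGTG and CCGGAAG, or its reverse complement CTTCCGG, in capitals. Nop58 at chr9:68614824-68615123 (plus strand), the member that rose most, holds no E-box and the ETS motif at 2 places. Tsr1 at chr10:60258540-60258839 (plus strand), the next in size, holds the ETS motif and an E-box that begins at position 21 after the start. Fbl at chr1:92597157-92597456 (plus strand) holds an E-box in nearly the same place, from position 22, and the ETS motif upstream. Ddx18 at chr13:35295923-35296222 (minus strand) holds an E-box just before the start, from position -13, and no ETS motif.
Nop58: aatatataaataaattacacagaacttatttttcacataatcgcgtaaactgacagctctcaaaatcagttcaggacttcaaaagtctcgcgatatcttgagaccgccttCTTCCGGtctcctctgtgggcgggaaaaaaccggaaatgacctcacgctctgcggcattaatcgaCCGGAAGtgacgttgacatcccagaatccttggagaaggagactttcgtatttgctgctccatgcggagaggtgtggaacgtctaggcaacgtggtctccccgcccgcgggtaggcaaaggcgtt
Tsr1: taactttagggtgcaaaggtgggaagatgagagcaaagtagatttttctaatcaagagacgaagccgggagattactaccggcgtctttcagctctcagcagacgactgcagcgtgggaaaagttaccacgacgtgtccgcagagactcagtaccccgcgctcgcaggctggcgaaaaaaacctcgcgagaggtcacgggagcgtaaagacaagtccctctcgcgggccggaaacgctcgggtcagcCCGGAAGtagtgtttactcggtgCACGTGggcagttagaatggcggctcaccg
Fbl: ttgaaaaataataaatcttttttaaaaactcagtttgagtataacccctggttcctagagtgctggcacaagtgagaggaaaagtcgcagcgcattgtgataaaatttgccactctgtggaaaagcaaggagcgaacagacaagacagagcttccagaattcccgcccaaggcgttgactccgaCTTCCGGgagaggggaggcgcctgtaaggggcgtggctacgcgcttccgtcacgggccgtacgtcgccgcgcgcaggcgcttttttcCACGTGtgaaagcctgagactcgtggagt
Ddx18: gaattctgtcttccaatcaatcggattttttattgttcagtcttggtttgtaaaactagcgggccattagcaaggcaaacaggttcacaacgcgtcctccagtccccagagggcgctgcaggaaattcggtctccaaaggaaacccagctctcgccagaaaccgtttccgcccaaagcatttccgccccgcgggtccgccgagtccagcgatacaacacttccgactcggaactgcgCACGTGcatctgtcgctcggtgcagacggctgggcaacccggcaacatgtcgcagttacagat
The 24 h galactosamine change had a median of 1.71 in the 14 members with an E-box and 2.05 in the 21 without one. With the ETS motif it was 1.85 (16 members) and without it 1.80 (19 members). Members with and without either motif covered overlapping ranges.

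At 3 h after galactosamine, before the rise, the members had moved in both directions. Of the 38, 12 had fallen and 3 had risen, while 18% of all genes fell and 14.9% rose (32.9% in either direction). The members' median was -0.14. As all 38 members rose at 24 h, the 12 that fell at 3 h were necessarily among them. The array's control probe set for 5S ribosomal RNA also differed at 3 h. It read 4.64, 4.79 and 4.89 in vehicle rats, 8.15, 7.39 and 7.91 after galactosamine and 5.67, 7.27 and 4.94 in the combination, a change of 3.04 ± 0.27 (adjusted p = 2.53e-11) and of 1.19 ± 0.27 (adjusted p = 0.000823). Its part in the members' values was not tested.

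The largest fall was that of Rrs1, which read 7.52, 7.71 and 7.40 in vehicle rats and 5.98, 5.75 and 5.97 in galactosamine rats, a change of -1.64 ± 0.24 (adjusted p = 1.15e-06). Nolc1 read 6.59, 6.41 and 6.40 against 5.36, 5.20 and 5.21, a change of -1.21 ± 0.19 (adjusted p = 2.65e-06). Rrp1b read 6.57, 6.91 and 6.90 against 5.85, 5.61 and 5.69, a change of -1.07 ± 0.17 (adjusted p = 4.59e-06). Wdr43 read 6.52, 6.17 and 6.35 against 5.90, 5.52 and 5.26, a change of -0.79 ± 0.19 (adjusted p = 0.00106). In these genes the treated rats lay wholly under the vehicle rats. The other 8 falls, of Nat10, Nop58, Gnl3, Polr1a, Wdr75, Nop14, Nop2 and Ddx10, ran from -0.71 to -0.38. The other probe sets of Rrp1b changed by -0.75 and -0.01, and that of Wdr43 by -1.33.

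The 3 members that rose at 3 h were Nop56, Ddx21 and Pes1. Nop56 read 8.77, 8.74 and 8.54 in vehicle rats and 9.62, 9.40 and 9.48 in galactosamine rats, a change of 0.82 ± 0.18 (adjusted p = 0.000298). Ddx21 read 8.23, 7.94 and 7.91 against 8.80, 8.59 and 8.48, a change of 0.59 ± 0.19 (adjusted p = 0.0166). Pes1 read 6.95, 6.93 and 6.87 against 7.45, 7.45 and 7.36, a change of 0.50 ± 0.13 (adjusted p = 0.00305). Vehicle rats at the other times read 7.14 to 7.63 in Pes1, a range that holds the treated values. None of these 3 members overlapped between the 2 groups at 3 h. The further probe set of Nop56 changed by 0.30 and that of Ddx21 by 0.10, and neither was called. Among the box C/D members Nop56 thus rose, Nop58 fell by 0.63 and Fbl changed by -0.08 ± 0.14. The call of Ddx21 was lost without galactosamine rat 16, vehicle rat 2 or vehicle rat 3, and with the mean of its probe sets.

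Between 3 h and 24 h the change against vehicle itself increased in 37 members, and Utp14a was the exception with 0.36 ± 0.20 (adjusted p = 0.129). Of all genes, 27.6% increased and 24.3% decreased. The largest increases were those of Rrs1 (4.39 ± 0.34), Nop58 (4.10 ± 0.28), Nolc1 (3.86 ± 0.27) and Rrp1b (3.53 ± 0.24). These genes had fallen at 3 h, and that fall is itself part of the increase.

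By 48 h after galactosamine 28 members were still above vehicle and none was below, with 24.9% of all genes above and 14.5% below. Their median change was 0.73. From 24 h to 48 h the change decreased in 30 members and increased in none, against 17.2% and 19.3% of all genes. The largest decreases were those of Nop58 (-2.74 ± 0.30), Gar1 (-2.34 ± 0.31), Wdr43 (-2.15 ± 0.28) and Nip7 (-2.08 ± 0.28).

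The order of the members differed from that at 24 h. Nolc1 now had the largest change and read 6.31, 6.35 and 6.11 in vehicle rats and 8.13 and 8.09 in the 2 galactosamine rats, a change of 1.85 ± 0.21 (adjusted p = 5.73e-09). Polr1a read 6.60, 6.18 and 6.24 against 7.88 and 7.99, a change of 1.60 ± 0.15 (adjusted p = 1.17e-10). Pes1 read 7.34, 7.14 and 7.22 against 8.69 and 8.73, a change of 1.47 ± 0.15 (adjusted p = 5.3e-10). Ebna1bp2, which works with Rrs1, read 8.05, 7.62 and 7.62 against 9.07 and 9.21, a change of 1.38 ± 0.20 (adjusted p = 6.8e-07). Both treated rats were above all vehicle rats in these genes. Polr1a, Rrp9 and Bop1 had larger fitted changes at 48 h than at 24 h, with differences of 0.29 ± 0.20, 0.16 ± 0.17 and 0.04 ± 0.23 that were not called.

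Other members were near vehicle at 48 h. Ncl read 10.57, 10.36 and 10.45 in vehicle rats and 10.23 and 10.21 in galactosamine rats, a change of -0.24 ± 0.14 (adjusted p = 0.157). Gar1 changed by 0.16 ± 0.23, Fbl by 0.07 ± 0.16 and Gnl3 by -0.23 ± 0.15. Together with Utp18, Utp20, Nip7, Utp14a, Rrn3 and Wdr43 these make up the 10 members not called. With 1 of the 2 treated rats left out, 22 members were called, on the assumption that the lone rat varies like those of other groups. At 8 d no member was called, with 1 at an unadjusted p under 0.05, against 0.0352% of all genes called in either direction (0.00703% higher and 0.0281% lower). The members' changes then lay between -0.27 and 0.20. The change had decreased from 48 h to 8 d in 23 members, with 16.6% of all genes decreasing, most in Nolc1 (-1.81 ± 0.28) and Polr1a (-1.53 ± 0.20).

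In combination rats at 24 h all 38 members were again above vehicle, with 20.7% of all genes above and 16% below. Their changes ran from 0.59 for Nat10 to 2.52 for Nop58, with a median of 1.13. At least 1 was reached by 24 members and at least 2 by Nop58 and Tsr1. Nop58 read 10.25, 10.35 and 10.98 in the combination rats, a change of 2.52 ± 0.20 (adjusted p = 1.87e-12). Tsr1 read 10.08, 10.10 and 10.71, a change of 2.35 ± 0.17 (adjusted p = 2.25e-13). Gar1 read 8.47, 8.71 and 8.71, a change of 1.89 ± 0.21 (adjusted p = 2.75e-09), and Ddx21 read 9.48, 9.78 and 9.71, a change of 1.82 ± 0.19 (adjusted p = 1.31e-09). Every combination rat was above every vehicle rat in all 38 members, and the share of all genes so separated was not counted. At 48 h of nevirapine the rats were separate from vehicle in 29 members, with 9 called. Noc3l was under the background level in both groups, so its call carries no fold, and Utp18 rose at least 2.27-fold. All 38 stayed called in every alternative and without each rat in turn.

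The rise at 24 h was smaller in combination rats than in galactosamine rats. Compared directly, 30 members were lower in the combination and none was higher, while 21.6% of all genes were lower and 16.2% higher. The median difference over the members was -0.70, and over all genes 0.03. Rrs1 had the largest difference, with 10.13, 10.64 and 10.15 after galactosamine and 8.26, 8.64 and 9.43 in the combination, a difference of -1.52 ± 0.24 (adjusted p = 2.96e-06). Rrp1b read 9.16, 9.43 and 9.16 against 7.47, 8.00 and 7.76, a difference of -1.50 ± 0.17 (adjusted p = 5.14e-09). Heatr1 read 8.85, 9.18 and 9.28 against 7.73, 7.94 and 8.02, a difference of -1.21 ± 0.15 (adjusted p = 3.53e-08). Wdr75 read 8.06, 8.91 and 8.01 against 6.89, 7.34 and 7.37, a difference of -1.12 ± 0.17 (adjusted p = 1.14e-06). The rats did not overlap in any of these 4.

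By role, all 3 box C/D members, all 3 polymerase I members, both chaperones and all 3 helicases were lower in the combination. Nop58 differed by -0.96 ± 0.20, Fbl by -0.36 ± 0.14, Polr1b by -1.11 ± 0.19, Nolc1 by -1.11 ± 0.19 and Ddx10 by -0.85 ± 0.14. The 8 members not called lower were Nhp2 (-0.29 ± 0.18), Utp14a (0.04 ± 0.14), Utp18 (-0.43 ± 0.18), Rrp9 (-0.26 ± 0.11), Bysl (-0.27 ± 0.14), Nat10 (-0.12 ± 0.13), Bop1 (-0.21 ± 0.15) and Nop2 (-0.22 ± 0.11). Utp14a was the only one with a positive difference. Nop2 read 9.00, 8.93 and 9.34 after galactosamine and 8.84, 8.80 and 8.98 in the combination. The count of 30 was 25 to 33 without single rats and 22 to 33 in the other alternatives.

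**Figure D4:**
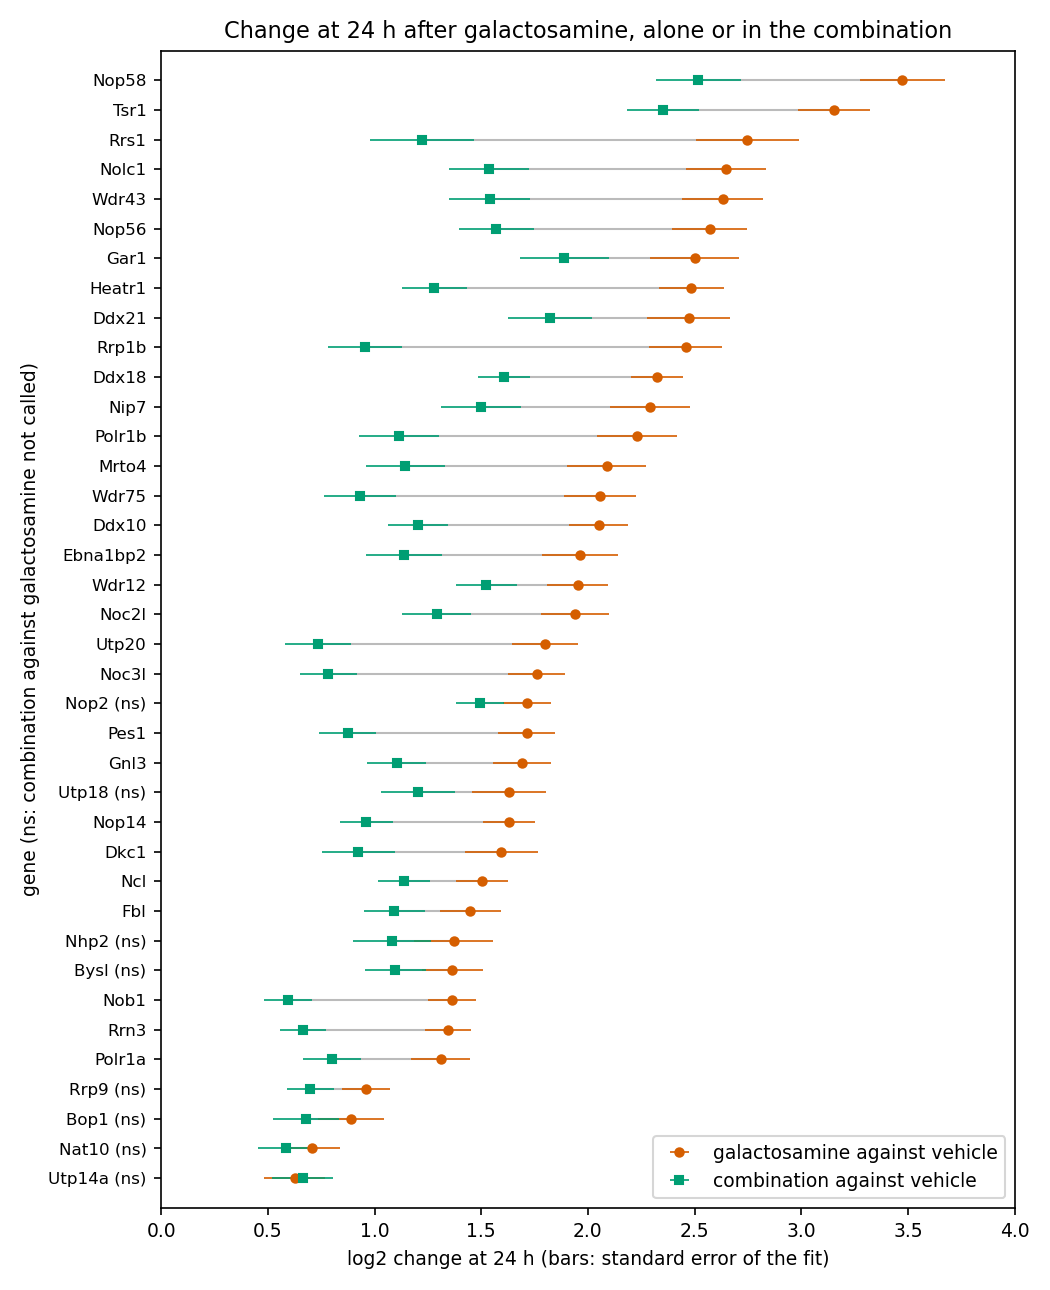
Each row is 1 gene, the horizontal axis is the log2 change against vehicle at 24 h, circles are galactosamine alone, squares are the combination, and bars are standard errors of the fit; both changes use the same vehicle rats. Squares lie left of circles in 37 of the 38 rows, and "ns" marks the 8 genes whose direct difference was not called.

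At 3 h of the combination 9 members had fallen and none had risen, while 17.4% of all genes fell and 15.2% rose (32.5% in either direction). The count of falls was not far from the share of all genes. Nop2 fell most and read 7.69, 7.60 and 7.55 in vehicle rats and 6.71, 6.95 and 7.07 in combination rats, a change of -0.70 ± 0.11 (adjusted p = 7.3e-06). Rrs1 read 6.73, 6.29 and 7.71 in combination rats, a change of -0.63 ± 0.24 (adjusted p = 0.0424), Dkc1 read 7.46, 7.97 and 6.78, a change of -0.59 ± 0.17 (adjusted p = 0.00706), and Nat10 read 5.04, 5.36 and 5.87, a change of -0.56 ± 0.13 (adjusted p = 0.000879). Only Nop2 and Nat10 of these were below vehicle in every rat. The other 5 falls, of Rrp1b, Heatr1, Bysl, Nob1 and Rrp9, ran from -0.49 to -0.30. The count was 4 without rat 62, and 5 and 3 without vehicle rats 1 and 3. It was 1 when only the rats compared were fitted, 15 without rats 31, 63 and 70 and 16 against all 15 vehicle rats.

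The combination differed from galactosamine at 3 h in 10 members, 6 higher and 4 lower, against 10.6% and 7.06% of all genes. These counts were not far from the shares of all genes. The 6 were Rrs1, Nolc1, Wdr43, Rrp1b, Gnl3 and Nop14. Rrs1 read 5.98, 5.75 and 5.97 after galactosamine and 6.73, 6.29 and 7.71 in the combination, a difference of 1.01 ± 0.24 (adjusted p = 0.00297). Nolc1 read 5.36, 5.20 and 5.21 against 6.12, 5.82 and 6.66, a difference of 0.94 ± 0.19 (adjusted p = 0.000411). The 4 lower ones were Nop56 (-0.58 ± 0.18), Dkc1 (-0.56 ± 0.17), Utp14a (-0.51 ± 0.14) and Nop2 (-0.32 ± 0.11). Rat 63 was the highest combination rat in Rrs1 and Nolc1, where vehicle rats read 7.52, 7.71 and 7.40 in Rrs1 and 6.59, 6.41 and 6.40 in Nolc1. Without it 3 members were called, 1 higher and 2 lower. Leaving out galactosamine rat 16, 17 or 18 gave 6 each time, fitting only these rats gave 1, array weights gave 4, and leaving out rats 31, 63 and 70 gave 4.

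At 48 h the combination rats were closer to vehicle than the galactosamine rats. Here 9 members were above vehicle and 1 below, with 10.2% and 5.77% of all genes, and the median change was 0.26. Nhp2 read 8.19, 8.19 and 8.02 in vehicle rats and 9.97, 8.84 and 8.36 in combination rats, a change of 0.92 ± 0.18 (adjusted p = 0.000487). Nop58 read 9.17, 8.63 and 8.16, a change of 0.77 ± 0.20 (adjusted p = 0.00598), Nolc1 read 7.49, 6.94 and 6.50, a change of 0.72 ± 0.19 (adjusted p = 0.00656), and Tsr1 read 9.12, 8.74 and 8.44, a change of 0.68 ± 0.17 (adjusted p = 0.00421). Rrn3 went the other way, with 8.26, 8.26 and 8.30 in vehicle rats and 7.93, 7.85 and 8.00 in combination rats, a change of -0.35 ± 0.11 (adjusted p = 0.0231). The first value in each of these combination lists is rat 70, the highest of its group in all but Rrn3. Without rat 70 only 1 member was called, and without vehicle rat 11 or 12 there were 5. None was called when only these rats were fitted, 5 with the GAPDH difference as a covariate, 6 with array weights and 5 without rats 31, 63 and 70.

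Against galactosamine at 48 h, 19 members were lower in the combination and none was higher, with 17.1% and 12.1% of all genes (29.3% in either direction). Pes1 read 8.69 and 8.73 in galactosamine rats and 7.69, 6.98 and 7.15 in combination rats, a difference of -1.43 ± 0.15 (adjusted p = 1.49e-09). Polr1a read 7.88 and 7.99 against 6.75, 6.71 and 6.44, a difference of -1.30 ± 0.15 (adjusted p = 1.68e-08). Nolc1 read 8.13 and 8.09 against 7.49, 6.94 and 6.50, a difference of -1.13 ± 0.21 (adjusted p = 6.25e-05). Polr1b read 7.37 and 7.75 against 6.63, 6.51 and 6.15, a difference of -1.13 ± 0.21 (adjusted p = 6.15e-05). None of these 4 overlapped between the groups, rat 70 included. The count was 24 without rat 70, and 11 when only these rats were fitted.

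The change against vehicle in combination rats increased from 3 h to 24 h in 38 members, with 16.1% of all genes. It decreased from 24 h to 48 h in 31, with 7.33% of all genes, most in Nop58 (-1.74 ± 0.28), Tsr1 (-1.67 ± 0.24) and Gar1 (-1.64 ± 0.30). When only the rats compared were fitted, the second count was 19. From 48 h to 8 d it decreased in Nhp2 (-1.04 ± 0.26 (adjusted p = 0.0105)), Ddx18 (-0.70 ± 0.17 (adjusted p = 0.0093)) and Nop2 (-0.65 ± 0.16 (adjusted p = 0.00919)), with 4.97% of all genes. Without rat 72 this count was 7, and when only the rats compared were fitted it was 0.

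At 8 d, the time of fibrosis in the study's design, few members differed from vehicle in combination rats. Of all genes, 13.1% were above and 11.7% below. Ddx21 was the member above vehicle, with 8.04, 8.47 and 8.21 in vehicle rats at 15 d and 8.88, 8.94 and 8.68 in combination rats, a change of 0.59 ± 0.19 (adjusted p = 0.023). Nob1 read 7.93, 7.95 and 8.14 against 7.69, 7.40 and 7.38, a change of -0.52 ± 0.11 (adjusted p = 0.000796). Utp14a read 8.06, 8.06 and 8.14 against 7.75, 7.49 and 7.53, a change of -0.49 ± 0.14 (adjusted p = 0.0091). Nop2 read 7.20, 7.44 and 7.36 against 7.03, 7.08 and 6.93, a change of -0.32 ± 0.11 (adjusted p = 0.0348). The rats of the groups were separate in all 4. The vehicle group used decided 2 of these calls. Vehicle rats at 8 d read 8.65, 8.76 and 8.68 in Ddx21. Against them Ddx21 and Nop2 were not called, Utp14a and Nob1 stayed called, and the count was 3, all lower. Only Utp14a and Nob1 stayed called without rat 73 or without vehicle rat 15. Counts of 7 to 11 came from fitting only these rats (8), array weights (11), leaving out rats 31, 63 and 70 (7) and all vehicle rats as control (11).

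The difference between the combination effect and the galactosamine effect at 8 d was called in no member, with 3 at an unadjusted p under 0.05, against 11.2% of all genes (5.87% higher and 5.34% lower). It ran from -0.46 ± 0.26 for Polr1b to 0.65 ± 0.28 for Ddx21. Combination rats at 8 d and nevirapine rats at 15 d differed in no member by limma, with 2 at an unadjusted p under 0.05, against 12.4% of all genes (9.31% higher and 3.09% lower). Vehicle rats at 15 d and 8 d also differed in none, with 2 at an unadjusted p under 0.05, against 3.33% of all genes. Under some alternatives up to 6, 4 and 2 members were called in these 3 comparisons.

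Under nevirapine alone 11, 8, 9 and 1 members were called at 3 h, 24 h, 48 h and 15 d, and no change reached 1 on the log2 scale. After 3 h 10 members were above vehicle and 1 below, with 7.59% and 7.48% of all genes. Ddx21 read 8.23, 7.94 and 7.91 in vehicle rats and 8.56, 9.27 and 9.18 in nevirapine rats, a change of 0.97 ± 0.19 (adjusted p = 0.000657). Nop58 read 8.11, 8.03 and 8.03 against 8.44, 8.90 and 8.85, a change of 0.67 ± 0.20 (adjusted p = 0.0189). Wdr43 changed by 0.63 ± 0.19 (adjusted p = 0.019) and Tsr1 by 0.61 ± 0.17 (adjusted p = 0.0126). Nop2 went down, with 7.69, 7.60 and 7.55 in vehicle rats and 7.11, 7.29 and 7.40 in nevirapine rats, a change of -0.35 ± 0.11 (adjusted p = 0.0303). No rat overlapped in these genes. Vehicle rats at the other times read 7.20 to 7.44 in Nop2, a range that holds nevirapine rats 32 and 33. The others above vehicle were Nip7, Utp18, Rrn3, Gnl3, Pes1 and Noc3l, the last under the background level in both groups. The count of 11 became 3 without rat 32, 6 without rat 33, and 6, 4 and 5 without vehicle rats 1, 2 and 3. Array weights gave 18.

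After 24 h of nevirapine 8 members were above vehicle and none below, with 4.55% and 6.63% of all genes. Tsr1 read 8.05, 7.86 and 7.92 in vehicle rats and 9.29, 8.74 and 8.60 in nevirapine rats, a change of 0.94 ± 0.17 (adjusted p = 0.0002). Ddx21 read 7.82, 7.77 and 7.92 against 9.10, 8.52 and 8.41, a change of 0.84 ± 0.19 (adjusted p = 0.00308). Gnl3 read 8.68, 8.88 and 8.89 against 9.80, 9.63 and 9.40, a change of 0.79 ± 0.14 (adjusted p = 0.000118), and Wdr43 changed by 0.74 ± 0.19 (adjusted p = 0.00709). These rats were all above vehicle. Polr1b, Heatr1, Nop14 and Utp18, the last at least 1.58-fold, were the others called. The first nevirapine rat in each list, rat 37, was the highest, and without it 2 members were called. Without vehicle rat 6 there were 5, cyclic loess gave 13, and array weights and leaving out rats 31, 63 and 70 gave 15 each.

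After 48 h of nevirapine 8 members were above vehicle and 1 below, with 11% and 6.44% of all genes. Tsr1 read 8.25, 7.92 and 8.09 in vehicle rats and 8.72, 8.85 and 8.78 in nevirapine rats, a change of 0.70 ± 0.17 (adjusted p = 0.00396). Nhp2 read 8.19, 8.19 and 8.02 against 8.81, 8.88 and 8.79, a change of 0.69 ± 0.18 (adjusted p = 0.00819). Gar1 changed by 0.64 ± 0.21 (adjusted p = 0.0288) and Ddx21 by 0.62 ± 0.19 (adjusted p = 0.0232). Dkc1 went down, with 8.18, 8.15 and 8.22 in vehicle rats and 7.82, 7.60 and 7.62 in nevirapine rats, a change of -0.50 ± 0.17 (adjusted p = 0.0364). In these genes the groups were apart. Against vehicle at 48 h the box H/ACA members moved in both directions, Gar1 and Nhp2 up and Dkc1 down. Vehicle rats read 7.54, 7.69 and 7.39 in Dkc1 at 8 d and 7.64, 7.83 and 7.76 at 15 d, a range that holds the treated values. The split of 8 above and 1 below was 3 and 2 with cyclic loess. The count was 2 and 3 without vehicle rats 11 and 12, and 5 without rat 40 or rat 41. It was 18 when only these rats were fitted, 24 with array weights, 15 without rats 31, 63 and 70 and 3 against all vehicle rats.

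Tsr1 and Ddx21 were the 2 members called above the vehicle group of the same time at 3 h, 24 h and 48 h of nevirapine. Vehicle rats at 8 d read 8.61, 8.65 and 8.71 in Tsr1 and 8.65, 8.76 and 8.68 in Ddx21. Some nevirapine rats in these comparisons thus lay within the range of vehicle rats of other times. After 15 d only Nop2 was called, below vehicle with 7.20, 7.44 and 7.36 against 7.02, 6.96 and 7.01, a change of -0.34 ± 0.11 (adjusted p = 0.0404), while 5.13% of all genes were above and 8.79% below. None was called without vehicle rat 14 or 15 or nevirapine rat 43, 44 or 45 (a count of 0). The count was 7 when only these rats were fitted, 10 with array weights, 6 without rats 31, 63 and 70, 5 against all vehicle rats, 4 without the dimmest genes and 2 with the mean of all probe sets.

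Most other genes of the pathway also rose at 24 h of galactosamine, when 30.2% of all genes rose. All 11 further genes of RNA polymerase I and its factors rose (median 1.84), led by Taf1c, a subunit of its promoter selectivity factor (2.68 ± 0.14), Polr1g (2.63 ± 0.19) and Polr1f (2.54 ± 0.18). Of 36 further small subunit factors 35 rose and none fell (median 1.40), led by the kinase Riok2 (2.87 ± 0.19), Utp3 (2.56 ± 0.20) and Pno1 (2.36 ± 0.18). Of 37 further large subunit factors 35 rose and none fell (median 1.67), led by Ppan (3.28 ± 0.17), Surf6 (2.69 ± 0.14) and Mak16 (2.62 ± 0.13). Of 10 genes that assemble the nucleolar particles 8 rose, led by Nufip1 (2.16 ± 0.16), Shq1 (2.02 ± 0.27) and Coil (2.00 ± 0.16), and Pih1d1 fell (-0.50 ± 0.12).

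Lists further from the early nucleolar steps had smaller medians. Of 12 genes of the nuclear exosome, the complex that degrades and trims nuclear RNA, 10 rose and 1 fell (median 0.65). Mphosph6 (2.46 ± 0.16) and Exosc1 (1.90 ± 0.14) rose most, and Exosc5 fell (-1.78 ± 0.14). Of 11 genes of RNA polymerase III, which makes the 5S ribosomal RNA and transfer RNAs, 9 rose and none fell (median 0.74), led by Brf2 (2.17 ± 0.22), Polr3d (2.06 ± 0.13) and Polr3e (2.04 ± 0.14). Of 47 cytosolic ribosomal protein genes 39 rose and 1 fell, with a median of 0.45. These lists were chosen with results of these data known, so their direction is no independent evidence.

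In combination rats at 24 h, when 20.7% of all genes rose, the same lists had lower medians. The counts were 9 of 11 for polymerase I (median 1.15), 34 of 36 for the small subunit (0.91), 34 of 37 for the large subunit (0.96) and 7 of 10 for particle assembly (0.73), with none fallen. For the exosome 8 of 12 rose and 1 fell (0.38), for polymerase III 8 of 11 rose and 1 fell (0.46), and for ribosomal proteins 37 of 47 rose (0.31). Both sets of values use the same vehicle rats.

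**Figure D5:**
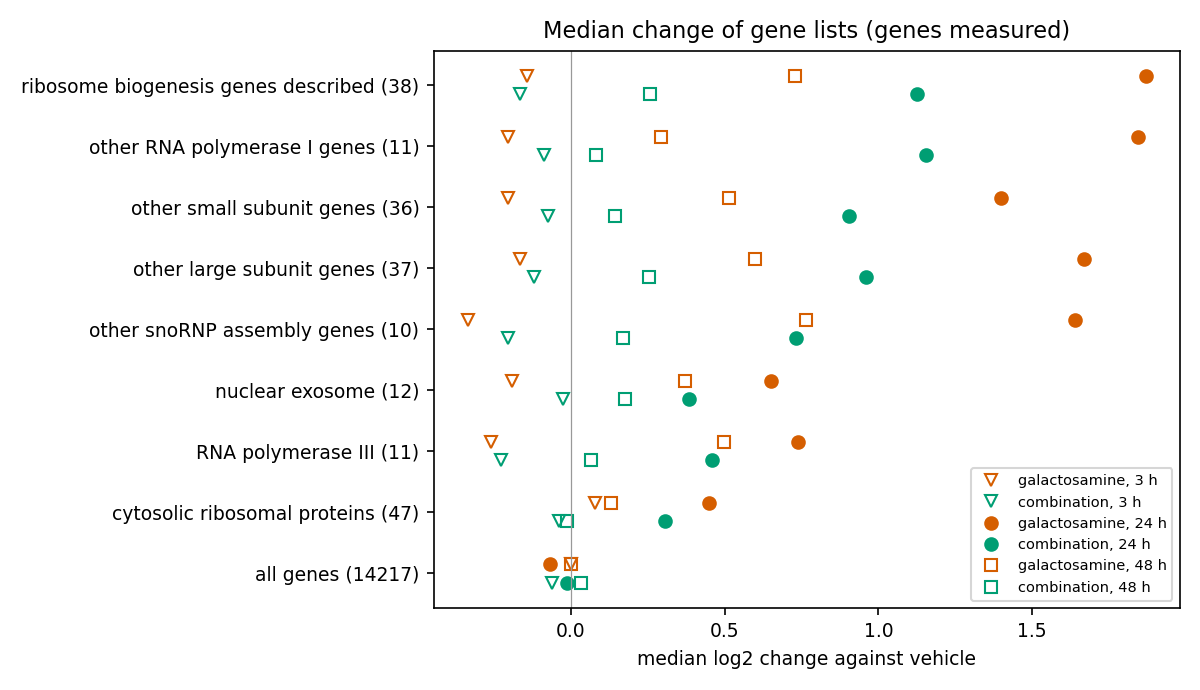
Each row is a gene list with the number of its genes measured, and the horizontal axis is the list's median log2 change against vehicle; colours are galactosamine and the combination, triangles 3 h, filled circles 24 h and squares 48 h. At 24 h of galactosamine the medians run from 1.87 for the members and 1.84 for other polymerase I genes to 0.45 for cytosolic ribosomal proteins, and the median of all genes is -0.07.

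Myc fell at 3 h and rose at 24 h after galactosamine, and its part in the members' changes was not tested. Its mean log2 signal in the groups at 3 h was 7.84 in vehicle rats and 6.11 in galactosamine rats, a change of -1.73 ± 0.43 (adjusted p = 0.00166). At 24 h it was 8.10 against 10.18, a change of 2.09 ± 0.43 (adjusted p = 7.05e-05). In the combination it changed by 0.15 ± 0.43 (adjusted p = 0.823) at 3 h and by 1.40 ± 0.43 (adjusted p = 0.00887) at 24 h. Mnt, a repressor that competes with MYC for E-boxes, changed by -1.08 ± 0.20 (adjusted p = 5.41e-05) and 1.50 ± 0.20 (adjusted p = 4.04e-08) after galactosamine and by 0.02 ± 0.20 (adjusted p = 0.947) at 24 h of the combination. Of the 10 genes of the MYC network measured, 4 rose and 3 fell at 24 h of galactosamine, with a median of -0.15. These counts were near the shares of all genes, 30.2% higher and 28.5% lower. Mxd4 fell most (-0.88 ± 0.13).

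Some markers of other cells differed from vehicle at the same times. Of all genes, 14.9% rose at 3 h of galactosamine, 30.2% at 24 h and 24.9% at 48 h. In the combination 15.2%, 20.7% and 10.2% rose, and 28.5% fell at 24 h of galactosamine. The 8 macrophage markers had a mean log2 signal of 7.44 to 7.48 in vehicle rats at 24 h, 8.32 to 8.52 after galactosamine and 8.79 to 9.08 in the combination, and 3 of 8 and 8 of 8 rose. At 3 h their means were 7.00 to 7.94 in vehicle rats, 8.53 to 8.65 after galactosamine and 9.36 to 9.51 in the combination, and all 8 rose in both arms. At 48 h all 8 rose in both arms again, with 9.45 and 9.49 after galactosamine. Vehicle rats had macrophage marker means of 6.90 to 8.26 at 48 h, 8.10 to 8.66 at 8 d and 8.12 to 8.29 at 15 d. The galactosamine means at 3 h and 24 h thus lay within the range of vehicle rats of all times. The 12 cell cycle genes had means of 4.35 to 4.41 in vehicle rats at 24 h, 4.94 to 5.11 after galactosamine and 4.99 to 5.52 in the combination, and 4 and 6 of them rose. At 48 h they had 5.33 and 5.36 after galactosamine, where 10 rose, and 4.72 to 5.96 in the combination, where 9 rose. Of 6 endothelial markers 6 rose at 3 h of galactosamine and 3 fell at 24 h. The GAPDH difference at 24 h lay between 0.21 and 0.67 in vehicle rats, 0.39 and 0.53 after galactosamine and 0.18 and 0.28 in the combination. At 48 h it was 0.48 to 0.74 in vehicle rats and 0.13 and 0.14 after galactosamine, with no overlap. With this difference as a covariate the counts at 24 h remained 38 in both arms. The galactosamine range at 24 h lies inside that of vehicle rats, so the covariate could alter little in that comparison. The part of these cells and of RNA integrity in the members' changes was not tested.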

How the data were processed

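RNA from each of 50 rat livers was measured on 1 Affymetrix array. Per the submitters' processing notes, the authors used RMA and limma, and the values deposited are log2 signals for 31099 probe sets. Of these, 20826 had 1 gene symbol in the platform annotation, 436 several and 9831 no entry, and 57 were controls. Each of 14217 genes was represented by its brightest probe set on average over all arrays. The 17 group means were fitted with limma 3.58.1 in R 4.3.3 (lmFit, contrasts, eBayes), with Benjamini-Hochberg adjustment over all genes, and a gene was called at an adjusted p under 0.05 in each of 24 comparisons. Promoters, counts and plots used Python 3.11.15 with numpy 2.4.6, pandas 2.3.3 and matplotlib 3.10.9. Members, lists and tests were chosen with earlier results of these data known. Values of every rat are given for up to 3 members per role with the largest change at 24 h of galactosamine, for members called against the direction of most, and for up to 4 members in other comparisons. Simulated data had the real group sizes and independent normal noise, with 100 of 14217 genes moved 2-fold and 100 moved 1.5-fold. For galactosamine at 24 h, 88% of the 2-fold and 69% of the 1.5-fold changes were called. For the difference of effects at 8 d these shares were 80% and 33%. In the real data 58.8% of all genes were called at 24 h of galactosamine. The adjustment therefore acts differently there, and the simulated rates do not carry over directly. Alternatives were fitting only the groups compared, a trended and robust prior, leaving out the dimmest 40% of genes, the mean of all probe sets, cyclic loess, array weights, the GAPDH difference as covariate, leaving out rats 31, 63 and 70 together, all vehicle rats as 1 control, vehicle rats at 8 d as control for the combination at 8 d, the treated groups compared directly at 8 d, and leaving out each rat.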

Additional observations from a re-analysis of the deposited data

Results flagged for a closer look

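The combination differed from galactosamine alone in 10 members at 3 h, 30 at 24 h and 19 at 48 h, each by a direct test of the difference. Of all genes, 17.7%, 37.8% and 29.3% differed at these times. The change against vehicle also differed between times. After galactosamine it differed between 3 h and 24 h in 37 members, between 24 h and 48 h in 30 and between 48 h and 8 d in 23. The shares of all genes were 51.9%, 36.4% and 23.9%. In combination rats the same steps differed in 38, 31 and 3 members, with 28.7%, 14.6% and 9.01% of all genes. The last of these counts was near the share of all genes. The control probe set for 5S ribosomal RNA, which is no member, differed from vehicle by 3.04 at 3 h of galactosamine, 0.90 at 48 h of galactosamine and 1.19 at 3 h of the combination. At 24 h it changed by -0.03 after galactosamine, when all 38 members were called higher.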

How the results depend on the processing

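Of 206 counts of called members under alternatives that left out no single rat, 159 were within 1.5 times the reported count and 47 were not. No count at 24 h of galactosamine or of the combination against vehicle was among the 47. With only the groups compared in the fit, the counts were 18 for nevirapine at 48 h, 7 at 15 d, 1 for the combination at 3 h, 0 at 48 h and 8 at 8 d. Against galactosamine they were 1 at 3 h and 11 at 48 h, and 6 for the difference of effects at 8 d. For the combination effect they were 19 from 24 h to 48 h and 0 from 48 h to 8 d, and for vehicle at 15 d against 8 d 1. With array weights they were 18, 15, 24 and 10 for nevirapine at 3 h, 24 h, 48 h and 15 d, 6 and 11 for the combination at 48 h and 8 d, 4 against galactosamine at 3 h, 5 for the difference at 8 d, 4 against nevirapine at 15 d, 5 for the combination effect from 48 h to 8 d and 2 for vehicle. Without rats 31, 63 and 70 they were 15, 15 and 6 for nevirapine at 24 h, 48 h and 15 d, 15, 5 and 7 for the combination at 3 h, 48 h and 8 d, 4 against galactosamine at 3 h, 3 for the difference at 8 d and 1 for vehicle. With all vehicle rats as control they were 1 for galactosamine at 8 d, 3 and 5 for nevirapine at 48 h and 15 d, and 16 and 11 for the combination at 3 h and 8 d. Cyclic loess gave 13 and 5 for nevirapine at 24 h and 48 h, 1 for the difference at 8 d, 1 against nevirapine and 5 for the combination effect from 48 h to 8 d. The dimmest genes left out gave 4 for nevirapine at 15 d and 1 for the difference at 8 d, and the mean of probe sets gave 2 for nevirapine at 15 d and 1 for vehicle. The GAPDH covariate gave 5 for the combination at 48 h, and the treated rats of both arms compared directly at 8 d gave 3. Pes1 at 3 h of nevirapine turned to -0.015 (limma adjusted p = 0.963) with all vehicle rats as control. The causes were not tested.

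Without single rats, counts ran from 12 to 14, 38 to 38, 22 to 25 and 0 to 0 for galactosamine at 3 h, 24 h, 48 h and 8 d. They ran from 3 to 10, 2 to 8, 2 to 9 and 0 to 1 for nevirapine at 3 h, 24 h, 48 h and 15 d. They ran from 3 to 10, 38 to 38, 1 to 13 and 2 to 3 for the combination at 3 h, 24 h, 48 h and 8 d. Against galactosamine they ran from 3 to 11, 25 to 33 and 17 to 24 at 3 h, 24 h and 48 h. For the difference at 8 d they ran from 0 to 1, with 1 without vehicle rat 13. For the steps of the combination effect they ran from 36 to 38, 26 to 36 and 3 to 7, and for galactosamine from 37 to 38, 28 to 30 and 16 to 23. No paired analysis was possible because rats carry unique numbers. The number of arrays limits the precision, and small changes can be missed at this size.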
